A study of Mus musculus with 15 samples.

Results

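Transcripts of 10 cell death genes were followed in 15 mouse tumors, untreated or at 4 times after the start of poly(I:C) injections into the tumor. Poly(I:C) is an artificial mimic of viral double-stranded RNA and a ligand of Toll-like receptor 3. The genes were the necroptosis genes Ripk1, Ripk3, Mlkl and Casp8, the pyroptosis genes Casp1, Casp4 and Gsdmd, and the death receptor group Fas, Tnfsf10 and Xaf1. They were taken by name from the cell death pathways, with earlier results of these data known, and make up 10 of the 32544 entries of the deposited table. All 10 passed the filter on low counts, with at least 128 estimated counts in every tumor, and 15494 genes were tested in all.

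The tumors grew subcutaneously from cells of the murine fibrosarcoma line WEHI-164 in wild-type female BALB/c mice whose age the labels do not give. Day 0 tumors were untreated. The other groups received poly(I:C) and were taken on day 1, 3, 5 or 7, with 3 tumors on each day. Per the labels each injection held 1 µg in 25 µL, was given daily and was planned for 6 doses, and a supplementary legend states another amount, so the dose is not settled. That legend names a vehicle group, but the labels name none among these tumors. The injection itself and poly(I:C) can therefore not be told apart. Untreated tumors were taken on day 0 only, so further days of tumor growth cannot be told apart from treatment either. Nothing states whether tumors of a day came from separate cages or batches, and p-values measure the spread between these tumors. RNA came from whole tumors, in which host cells lie among the WEHI-164 cells.

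In necroptosis, the kinases RIPK1 and RIPK3 assemble below death receptors, Toll-like receptor 3 or the nucleic acid sensor ZBP1, and RIPK3 phosphorylates MLKL, a pseudokinase that then breaches the plasma membrane. Caspase-8, which starts apoptosis below death receptors, cleaves the RIP kinases and holds necroptosis in check. In pyroptosis, inflammasomes activate caspase-1, and caspase-4 (known in mice as caspase-11) senses bacterial lipopolysaccharide in the cytosol. Both cleave gasdermin D, whose N-terminal part forms pores. Fas and TRAIL, the product of Tnfsf10, are a receptor and a ligand of the TNF family that trigger caspase-8, and XAF1 binds the caspase inhibitor XIAP. Several of these genes are known as interferon-inducible.

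The genes lie on 9 chromosomes of the GRCm38 assembly. In GENCODE M21, Ripk1 (ENSMUSG00000021408) spans chr13:34002363-34037147, Ripk3 (ENSMUSG00000022221) spans chr14:55784995-55788865, Mlkl (ENSMUSG00000012519) spans chr8:111311797-111338177 and Casp8 (ENSMUSG00000026029) spans chr1:58795374-58847503. Casp1 (ENSMUSG00000025888) at chr9:5298517-5307265 and Casp4 (ENSMUSG00000033538) at chr9:5308828-5336783 are neighbors on the plus strand. Gsdmd (ENSMUSG00000022575) spans chr15:75862327-75867408, Fas (ENSMUSG00000024778) spans chr19:34290666-34327772, Tnfsf10 (ENSMUSG00000039304) spans chr3:27317028-27342427 and Xaf1 (ENSMUSG00000040483) spans chr11:72301629-72313733. Ripk3 and Mlkl are on the minus strand and the other 8 on the plus strand. The start of Ripk1 overlaps the opposite-strand gene Serpinb6a over 432 bases, and whether the counting used strand is not given in the sources used here.

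Levels can be compared between genes only per length, so CPM values (counts relative to the library total, scaled with TMM factors) were divided by the kilobases of merged exons. On day 0, Casp1 stood at 44.9 ± 7.74 CPM per kb and Gsdmd at 44.4 ± 3.14 (SD, n = 3). These were followed by Mlkl at 35.1 ± 2.55 and Casp8 at 25.1 ± 1.23 CPM per kb. Ripk3 stood at 12.5 ± 1.08, Xaf1 at 10.7 ± 2.18, Casp4 at 10.6 ± 0.618 and Ripk1 at 7.86 ± 0.465 CPM per kb. Fas at 4.55 ± 0.0748 and Tnfsf10 at 2.44 ± 0.556 CPM per kb were the lowest. The pyroptosis genes Casp1 and Gsdmd and the necroptosis effector Mlkl were thus the most abundant of the 10 before treatment. Merged exons are not the lengths of the transcripts made, so this order is approximate. The death receptor gene Fas and the TRAIL gene Tnfsf10 were the least abundant. Casp1 and Gsdmd, and likewise Ripk3, Xaf1 and Casp4, did not differ beyond their spread.

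Because interferon-stimulated genes often carry an interferon-stimulated response element (ISRE) near their start, the 250 bases before each RefSeq start (GRCm38.p6) were searched. RefSeq entries were at hand for 9 of the 10 genes, with none for Gsdmd, and 11 entries in all, since Ripk1 and Casp4 have 2 each. The letters AANNGAAA, the ISRE core, were sought on both strands and occur in 21.3% of 32851 mouse promoter windows of that length. They occur in Casp8, Casp4, Fas, Tnfsf10 and Xaf1, which makes 5 of 9 genes, and not in the windows of Ripk1, Ripk3, Mlkl and Casp1. The 5 of 9 counts genes, with 2 windows each for Ripk1 and Casp4, while the 21.3% counts windows. The only Casp8 window lies within the GENCODE span of the gene, so the bases before its GENCODE start were not searched. The longer pattern GAAANNGAAA, which contains the core and occurs in 2.98% of windows, is in none of the 11 entries. The gamma-activated site TTCNNNGAA, which reads the same on both strands and occurs in 7.02% of windows, is found in Fas and in 1 entry of Ripk1. Such a match is a run of letters and not a shown binding site.

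The windows of Xaf1, the gene with the largest difference on day 1, and of Mlkl, which was also higher in all 3 tumors of that day but has no match, are shown whole. They read 5′ to 3′ on the gene's strand up to the last base before the RefSeq start, with the ISRE core, here in its reverse complement, in capitals.
Xaf1, chr11:72301379-72301628, + strand: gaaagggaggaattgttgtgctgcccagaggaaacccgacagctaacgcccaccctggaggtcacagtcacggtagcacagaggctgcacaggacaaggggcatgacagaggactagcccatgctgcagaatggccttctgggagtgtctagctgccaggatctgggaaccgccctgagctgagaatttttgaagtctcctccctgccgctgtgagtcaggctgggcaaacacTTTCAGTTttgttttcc
Mlkl, chr8:111338206-111338455, - strand: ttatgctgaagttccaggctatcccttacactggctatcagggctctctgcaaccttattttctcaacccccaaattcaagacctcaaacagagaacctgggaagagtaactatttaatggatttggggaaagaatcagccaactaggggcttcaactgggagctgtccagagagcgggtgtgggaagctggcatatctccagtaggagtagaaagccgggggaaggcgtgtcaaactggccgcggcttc
For Tnfsf10, whose day 3 difference was the largest of the 10 with all tumors and second to Xaf1 without day 3 replicate 1, for Casp8 and for Fas, 30 bases around a match are shown, with the match in capitals. The 2 matches of Tnfsf10 begin 53 and 30 bases before the RefSeq start. Casp8 also has 2, at 171 and 108 bases, of which the nearer is shown, and Fas has 1, at 130 bases.
Tnfsf10, chr3:27317013-27317042, + strand: gacttgcttagTTTCACTTttggtctcaac
Tnfsf10, chr3:27317036-27317065, + strand: tctcaacagtaAAAAGAAActgcatgggca
Casp8, chr1:58802383-58802412, + strand: tgcgaaagcagAAACGAAActgggagacca
Fas, chr19:34290518-34290547, + strand: tttggtccctcAAAAGAAAaaaagtgacat

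The comparisons with day 0 asked which transcripts differed after the start of treatment, and all share the same 3 untreated tumors. Day 7 fell after the last of the 6 planned daily doses, so time and the end of dosing cannot be told apart. On day 3 all 10 genes had a higher fitted level than on day 0, by 1.09-fold (Mlkl) to 2.84-fold (Tnfsf10), whereas 48% of all genes tested were higher. The median log2 fold change of the 10 was 0.34, 0.50, 0.29 and -0.10 on days 1, 3, 5 and 7. On day 1 it was 0.04 without day 1 replicate 3 and day 3 replicate 1, with 6 of 10 genes higher. Over all genes tested the medians lay between -0.02 and 0.00. From day 3 to day 7 all 10 were lower, with a median log2 fold change of -0.61, against 0.02 over all genes.

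No gene of the 10 passed the main test, the quasi-likelihood test of edgeR, at a Benjamini-Hochberg adjusted p under 0.05 on any day. Neither did any other gene, since 0% of the 15494 genes were called by edgeR in each of the 5 comparisons and in the joint test of the 4 treated days. At an unadjusted p under 0.05, edgeR placed Xaf1 below the threshold on day 1, against 3.16% of all genes. On day 3 it placed Ripk3, Casp1, Tnfsf10 and Xaf1 below it, which is 4 of 10 against 30% of all genes. None of the 10 was below it on day 5, against 4.8%, or on day 7, against 2.07%. Between days 3 and 7 it was 8 of 10, all but Mlkl and Casp4, against 35.5% of all genes, and in the joint test 3 of 10 (Casp1, Tnfsf10 and Xaf1) against 16.2%.

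The other tools called some of them. DESeq2 called Xaf1 on day 1, when it called 0.258% of all genes, and Casp1, Tnfsf10 and Xaf1 on day 3, when it called 12.9%. It called none of the 10 on day 5, against 0.071% of all genes, or on day 7, against 0.0323%. Between days 3 and 7 DESeq2 called Ripk3, Casp8, Casp1, Tnfsf10 and Xaf1, against 21% of all genes, and in the joint test Tnfsf10 and Xaf1, against 7.59%. The voom test of limma with sample quality weights called none on days 1 and 7, when it called 0% of all genes, Xaf1 on day 3 against 7.65%, and Ripk3 on day 5 against 15.9%. It called Tnfsf10 and Xaf1 between days 3 and 7 against 3.41%, and 6 of 10 in the joint test (Ripk3, Mlkl, Casp8, Casp1, Tnfsf10 and Xaf1) against 24.9% of all genes. Of the 10, Xaf1 alone was called on day 3 by both DESeq2 and voom. Without day 3 replicate 1, DESeq2 called only Xaf1 of the 10, on day 1 (0.462% of all genes), day 3 (0.553%), between days 3 and 7 (0.605%) and in the joint test (1.18%).

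**Figure D1:**
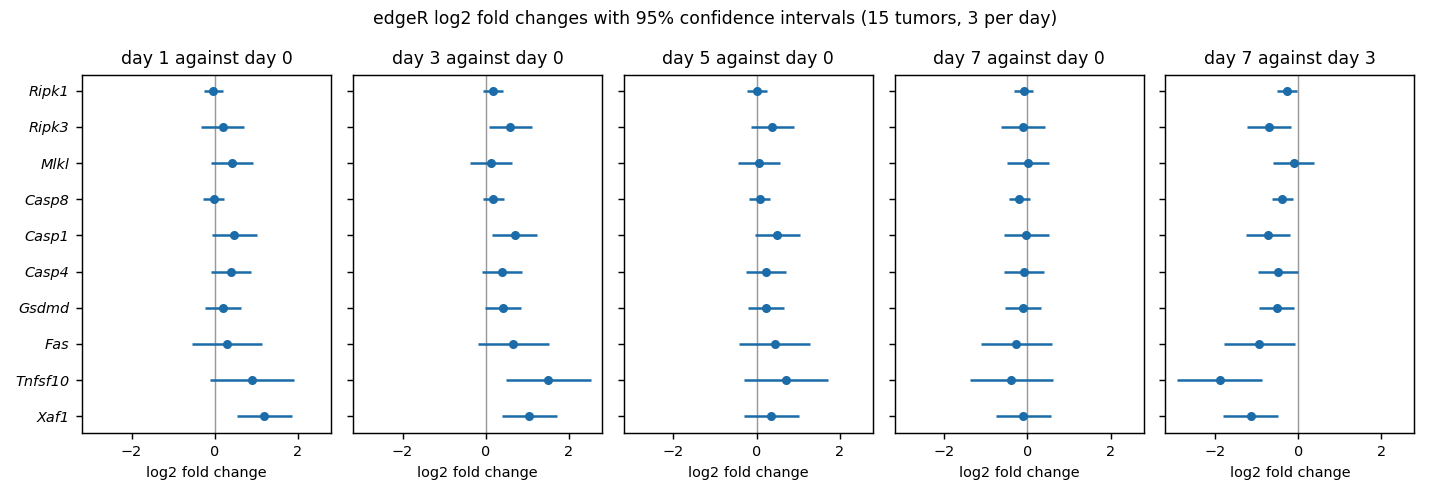
Log2 fold changes of the 10 genes in 5 comparisons, with points for the edgeR estimate and bars for its 95% confidence interval (15 tumors, 3 per day). Tnfsf10 and Xaf1 lie farthest to the right on day 3, at 1.51 and 1.05, and farthest to the left in day 7 against day 3, at -1.89 and -1.14.

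A tumor of day 3, replicate 1, stood apart from the rest. Its mean correlation of log2 CPM with the other tumors was 0.884, against at least 0.956 for each of the others, and voom gave it a weight of 0.0719. Its 5 skeletal muscle markers summed to 2692 CPM, against 1.76 to 149 CPM in the other 14 tumors, its 5 mesenchymal markers to 27574 CPM against 6250 to 12396, its 8 macrophage markers to 6628 CPM against 1066 to 3088 and its 9 T cell markers to 353 CPM against 14.004 to 197. None of these muscle, mesenchymal, macrophage or T cell markers was at 0 in it. Day 1 replicate 3 had the highest sum of the 24 interferon response genes, 7856 CPM, against 1625 to 5446 CPM in the other 14. Values without the first tumor, and on day 1 without the second, are given beside the results that they moved most. Total counts of the 15 tumors ranged from 23.7 to 31.9 mega-counts, no pair of tumors of the same day matched within counting noise, and 3 counts equaled 0.0972 to 0.125 CPM.

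In whole tumors, fewer cells of a type and less RNA per cell cannot be told apart, and marker sums moved with the day. Most cell type lists had their highest mean on day 3, neutrophil markers included (25.6 to 40.2 CPM on day 0 and 71.4 to 195 on day 3). The 5 erythroid markers were an exception, at 7.29 to 18.1 CPM on day 0, 8.17 to 20.3 on day 3 and 21.9 to 168 CPM on day 7. For some lists 1 tumor made the high day 3 mean. In day 3 replicates 2 and 3, mesenchymal markers summed to 8072 and 8162 CPM, against 7446 to 8892 on day 0. Skeletal muscle markers summed to 128 and 45.9 CPM in these 2 tumors, against 70.8 to 149 on day 0. Keratinocyte markers summed to 25.2 CPM in day 3 replicate 3, against 1.97 and 3.20 in replicates 1 and 2. The 7 cytotoxic and NK cell markers summed to 93.8 to 137 CPM on day 0, 74.0 to 283 on day 1, 243 to 404 on day 3, 72.4 to 316 on day 5 and 28.1 to 138 CPM on day 7. T cell markers summed to 35.2 to 48.8 CPM on day 0, 101 to 353 on day 3 and 14.004 to 62.7 on day 7, and macrophage markers to 1575 to 1731, 2649 to 6628 and 1066 to 2321 CPM. The sums of the neutrophil, cytotoxic and NK cell, T cell and macrophage lists did not overlap between days 0 and 3. The interferon response list ran from 1625 to 2078 CPM on day 0, 3160 to 7856 on day 1, 3727 to 5446 on day 3, 1975 to 3148 on day 5 and 1642 to 2087 CPM on day 7. What part the cell types or the interferon response had in the levels of the 10 genes was not tested.

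**Figure D2:**
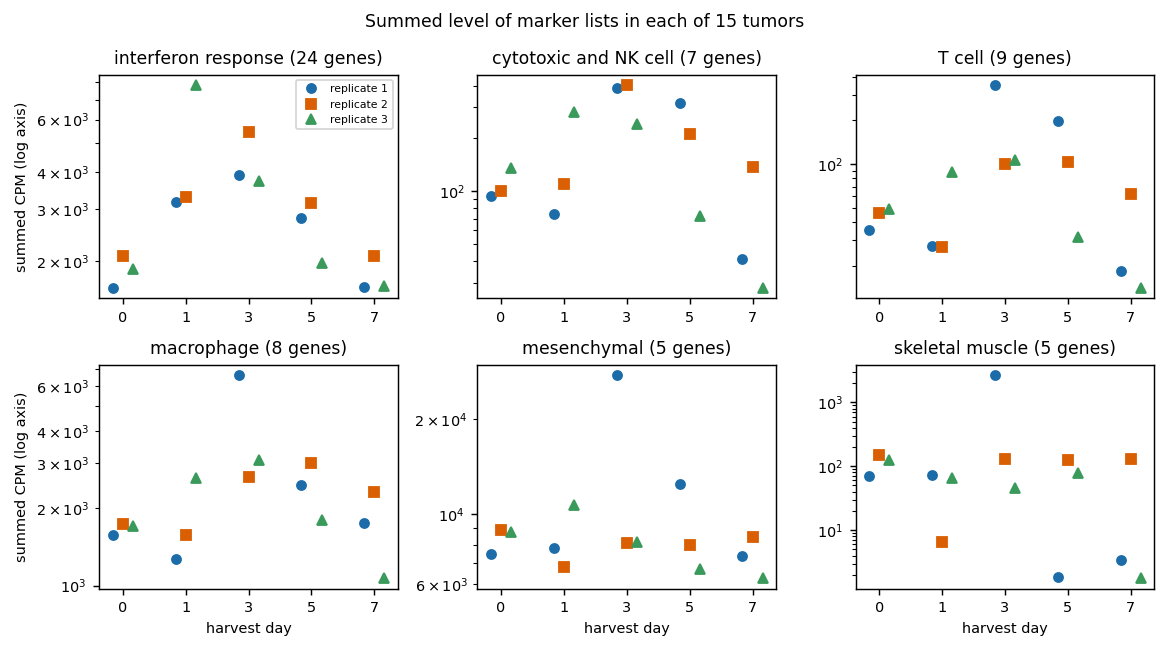
Summed CPM (log axis) of 6 marker lists in each of the 15 tumors by harvest day, with a point per tumor. Day 3 replicate 1 lies far above the other tumors for skeletal muscle (2692 CPM), and day 1 replicate 3 is the highest for the interferon response (7856 CPM).

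Among the necroptosis genes the kinase Ripk3 differed most on day 3 with all tumors. Without day 3 replicate 1 this order turned, with log2 fold changes of 0.40 for Mlkl and 0.38 for Ripk3. Ripk3 was measured at 26.0, 30.9 and 29.0 CPM on day 0, at 26.5, 28.3 and 43.0 on day 1, at 55.2, 38.7 and 35.6 on day 3, at 44.9, 41.1 and 26.1 on day 5 and at 24.7, 31.8 and 23.2 CPM on day 7. All day 3 tumors exceeded all day 0 tumors, and on day 5 replicates 1 and 2 did while replicate 3 was at the untreated level. The log2 fold change was 0.59 on day 3 (95% CI 0.07 to 1.11, edgeR adjusted p = 0.139) and 0.38 without day 3 replicate 1 (adjusted p = 0.473). On day 5 it was 0.38 (adjusted p = 0.859 by edgeR and 0.0274 by voom), and from day 3 to day 7 it was -0.70 (95% CI -1.22 to -0.18, adjusted p = 0.0885 by edgeR and 0.0378 by DESeq2).

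The scaffold kinase Ripk1 varied far less. Ripk1 stood at 61.4, 69.0 and 66.5 CPM on day 0, at 58.6, 63.6 and 70.0 on day 1, at 84.1, 68.3 and 70.3 on day 3, at 69.0, 67.8 and 62.2 on day 5 and at 68.4, 60.8 and 55.6 CPM on day 7. Every day overlapped day 0. Its log2 fold changes against day 0 were -0.03, 0.18, 0.02 and -0.09 in order of day, with 0.08 on day 3 without replicate 1. The 95% intervals with all tumors together ran from -0.33 to 0.41, which leaves out a change of the size measured for Tnfsf10.

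Mlkl, the effector that RIPK3 phosphorylates, had its highest mean on day 1, an order that turned without day 1 replicate 3 and day 3 replicate 1 (log2 fold change 0.23 on day 1 and 0.40 on day 3). Its levels were 74.4, 85.8 and 82.6 CPM on day 0, 91.9, 97.1 and 135 on day 1, 50.5, 111 and 102 on day 3, 85.8, 88.4 and 79.3 on day 5, and 85.1, 82.5 and 76.4 CPM on day 7. All day 1 tumors exceeded all day 0 tumors, as did day 3 replicates 2 and 3, while day 3 replicate 1 held the lowest Mlkl level of the 15 tumors. The log2 fold change was 0.42 on day 1 (95% CI -0.08 to 0.92, edgeR adjusted p = 1.0) and 0.23 without day 1 replicate 3. On day 3 it was 0.12 (95% CI -0.38 to 0.62, adjusted p = 0.716) with all tumors and 0.40 (95% CI 0.09 to 0.72, not called) without day 3 replicate 1, so this tumor set the size of the day 3 value. Days 5 and 7 gave 0.06 and 0.01.

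Casp8, the initiator caspase that restrains necroptosis, moved within a narrow range. Casp8 was at 68.9, 73.3 and 76.0 CPM on day 0, at 69.9, 64.9 and 79.1 on day 1, at 95.2, 78.2 and 73.9 on day 3, at 84.4, 76.9 and 68.4 on day 5 and at 64.3, 67.4 and 58.4 CPM on day 7. The day 7 tumors lay below all day 0 tumors and below all day 3 tumors. Its log2 fold change was 0.18 on day 3 (95% CI -0.07 to 0.43, edgeR adjusted p = 0.282) and 0.07 without day 3 replicate 1. It was -0.20 on day 7 (95% CI -0.45 to 0.06, adjusted p = 1.0), and -0.38 from day 3 to day 7 (95% CI -0.63 to -0.13, adjusted p = 0.0832 by edgeR and 0.0270 by DESeq2). Without that tumor the last value was -0.26 (adjusted p = 0.315).

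Ratios of 2 genes within a tumor do not depend on how libraries are scaled. The log2 ratio of Mlkl to Casp8 counts was 0.11, 0.23 and 0.12 on day 0, 0.39, 0.58 and 0.78 on day 1, -0.91, 0.51 and 0.46 on day 3, 0.02, 0.20 and 0.21 on day 5, and 0.40, 0.29 and 0.39 on day 7. All tumors of days 1 and 7, and all of day 3 except replicate 1, lay above the untreated tumors. The mean exceeded that of day 0 by 0.43 on day 1 and by 0.21 on day 7 (two-sided exact permutation p = 0.1 for each, the smallest that 3 tumors against 3 allow). On day 3 the mean differed by -0.13 (exact permutation p = 1.0), and by 0.33 without replicate 1 (exact p = 0.1). On day 5 it differed by -0.0065 (exact permutation p = 0.9).

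The log2 ratio of Ripk3 to Ripk1 counts was -1.23, -1.15 and -1.20 on day 0 and -0.61, -0.82 and -0.98 on day 3, and the groups did not overlap. The means on days 1, 3, 5 and 7 differed by 0.19, 0.39, 0.33 and -0.02 (exact permutation p = 0.2, 0.1, 0.4 and 0.8). On day 5 replicates 1 and 2 stood at -0.62 and -0.72 and replicate 3 at -1.25, the untreated level.

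**Figure D3:**
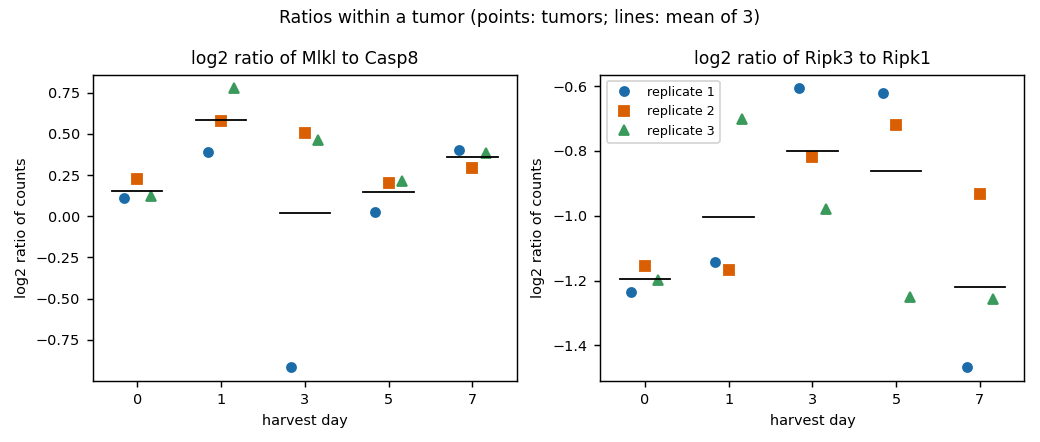
Log2 ratio of Mlkl to Casp8 counts (left) and of Ripk3 to Ripk1 counts (right) in each tumor by harvest day, with a point per tumor and a line for the mean of 3. On the left, day 3 replicate 1 lies at -0.91 while the other tumors lie between 0.02 and 0.78.

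The 3 pyroptosis genes were higher in all tumors of day 3 than in any untreated tumor. Casp1, the inflammasome caspase, stood at 55.6, 78.8 and 67.1 CPM on day 0, at 65.6, 91.2 and 121 on day 1, at 107, 109 and 112 on day 3, at 115, 97.0 and 72.8 on day 5 and at 71.5, 80.5 and 45.8 CPM on day 7. Day 3 was the tightest group, with a SD of 2.49 CPM, against 11.6 on day 0 and 27.8 on day 1 (n = 3). The log2 fold change was 0.70 on day 3 (95% CI 0.16 to 1.24, adjusted p = 0.119 by edgeR and 0.0474 by DESeq2) and 0.72 without replicate 1. The size thus did not rest on that tumor, but the DESeq2 call did, since without it the edgeR adjusted p was 0.367 and DESeq2 did not call Casp1. By day 7 Casp1 was at -0.03 against day 0, and the step from day 3 to day 7 was -0.72 (adjusted p = 0.0873 by edgeR and 0.0326 by DESeq2).

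Casp4, the lipopolysaccharide sensor, was measured at 36.6, 40.8 and 40.2 CPM on day 0, at 33.1, 48.8 and 71.0 on day 1, at 46.6, 55.7 and 52.8 on day 3, at 53.8, 46.3 and 37.5 on day 5 and at 40.4, 39.7 and 31.1 CPM on day 7. The day 1 tumors ranged from below to far above the untreated ones. Its log2 fold change was 0.38 on day 1 but 0.07 without day 1 replicate 3, and 0.40 on day 3 (95% CI -0.08 to 0.88, edgeR adjusted p = 0.224), or 0.47 without replicate 1 of that day.

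Gsdmd, the pore-forming substrate of both caspases, was at 97.7, 112 and 107 CPM on day 0, at 101, 113 and 149 on day 1, at 164, 132 and 126 on day 3, at 158, 121 and 92.4 on day 5 and at 97.6, 113 and 83.3 CPM on day 7. The highest levels were again in day 3 replicate 1, day 5 replicate 1 and day 1 replicate 3. The log2 fold change was 0.41 on day 3 (95% CI -0.02 to 0.84, edgeR adjusted p = 0.179), 0.29 without replicate 1, and -0.52 from day 3 to day 7 (95% CI -0.95 to -0.09, adjusted p = 0.101).

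The ligand Tnfsf10 (TRAIL) and the XIAP partner Xaf1 differed most. Tnfsf10 was measured at 9.58, 13.8 and 15.2 CPM on day 0, at 16.0, 18.9 and 36.8 on day 1, at 54.7, 31.7 and 23.1 on day 3, at 31.96, 21.1 and 10.1 on day 5 and at 8.06, 14.6 and 6.86 CPM on day 7. All tumors of days 1 and 3 lay above all untreated tumors, although by little for day 1 replicate 1. On day 3 it was 2.84-fold higher, a log2 fold change of 1.51 (95% CI 0.49 to 2.52, adjusted p = 0.115 by edgeR, 0.0229 by DESeq2 and 0.0502 by voom). Without replicate 1 it was 1.098 (95% CI 0.06 to 2.14, edgeR adjusted p = 0.380). From day 3 to day 7 it had the largest difference of the 10, -1.89 (95% CI -2.92 to -0.86, adjusted p = 0.0832 by edgeR, 0.00749 by DESeq2 and 0.0482 by voom).

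Xaf1 was at 39.7, 60.1 and 51.2 CPM on day 0, at 73.0, 88.1 and 183 on day 1, at 81.1, 129 and 102 on day 3, at 68.5, 73.2 and 51.7 on day 5 and at 43.1, 53.7 and 44.5 CPM on day 7. All 6 tumors of days 1 and 3 exceeded the untreated ones, and day 1 replicate 3 was the highest by a wide margin. The log2 fold change was 1.19 on day 1, or 2.28-fold (95% CI 0.53 to 1.85, adjusted p = 0.747 by edgeR, 0.0491 by DESeq2 and 0.165 by voom), and 0.68 (95% CI 0.20 to 1.16) without replicate 3. On day 3 it was 1.05 (95% CI 0.39 to 1.71, adjusted p = 0.115 by edgeR, 0.0186 by DESeq2 and 0.0241 by voom). Without day 3 replicate 1 it was 1.20 (95% CI 0.49 to 1.92, not called), and without both tumors that stood out edgeR called Xaf1 on day 3 at 1.20 (adjusted p = 0.0289, with 0.463% of all genes called) and from day 3 to day 7 at -1.28 (adjusted p = 0.0309, with 0.391% called). On day 7 the log2 fold change against day 0 was -0.10 (95% CI -0.75 to 0.56).

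Fas, the death receptor, stood at 9.54, 9.23 and 9.37 CPM on day 0, at 6.92, 8.54 and 19.0 on day 1, at 16.8, 15.3 and 12.5 on day 3, at 18.8, 11.8 and 7.47 on day 5 and at 5.21, 10.6 and 7.48 CPM on day 7. The untreated tumors were nearly equal, with a SD of 0.154 CPM, and the treated ones scattered to both sides, except on day 3, when all 3 were higher. The log2 fold change on day 3 was 0.66 (95% CI -0.19 to 1.52, edgeR adjusted p = 0.246), and 0.57 without replicate 1. On day 1 it was 0.29, and -0.28 without replicate 3, so its direction on day 1 rested on that tumor.

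**Figure D4:**
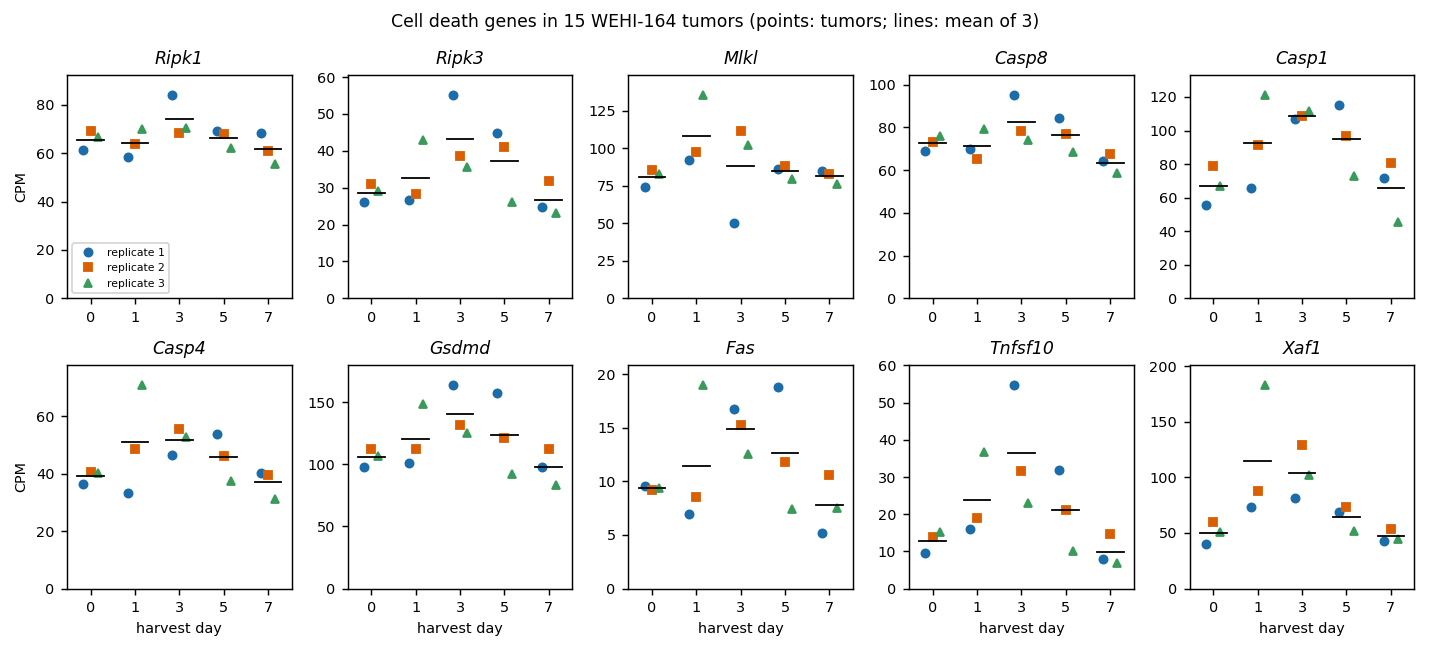
CPM of each gene in every tumor by harvest day, with a point per tumor and a line for the mean of 3; each vertical axis starts at 0. For Casp1, Tnfsf10 and Xaf1 the 3 tumors of day 3 lie above the 3 of day 0, while Mlkl in day 3 replicate 1 lies at 50.5 CPM, below all the others.

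Counting groups that did not overlap, 3 of the 10 genes (Mlkl, Tnfsf10 and Xaf1) were higher in all tumors of day 1 than in any of day 0, against 5.76% of all genes. On day 3 it was 7 of 10 (Ripk3, Casp1, Casp4, Gsdmd, Fas, Tnfsf10 and Xaf1), against 19.4%. On day 7, 1 of 10 (Casp8) was lower in all tumors, against 6.26% of all genes, and 8 of 10, all but Ripk1 and Mlkl, were lower in all tumors of day 7 than in any of day 3, against 18.4%.

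Tumors of the same day were unlike each other. Day 1 replicate 3 exceeded every untreated tumor for 10 of 10 genes and held the highest level of the 15 tumors for 5, whereas day 1 replicates 1 and 2 did so for 3 and 6 genes and held no maximum. On day 3, replicates 1, 2 and 3 each exceeded the untreated tumors for 9 genes. On day 5, replicates 1 and 2 did so for 10 and 9 genes and replicate 3 for 0. Day 7 replicate 3 was below every untreated tumor for 8 genes and was the lowest of the 15 for 7. The same counts were not made over all genes tested, so these describe the tumors and do not set the 10 genes apart. The median difference from the day 0 mean over the 10 genes ran from 0.38 to 0.66 on the log2 scale for the tumors of day 3, from -0.08 to 0.52 for day 5 and from -0.32 to 0.10 for day 7.

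**Figure D5:**
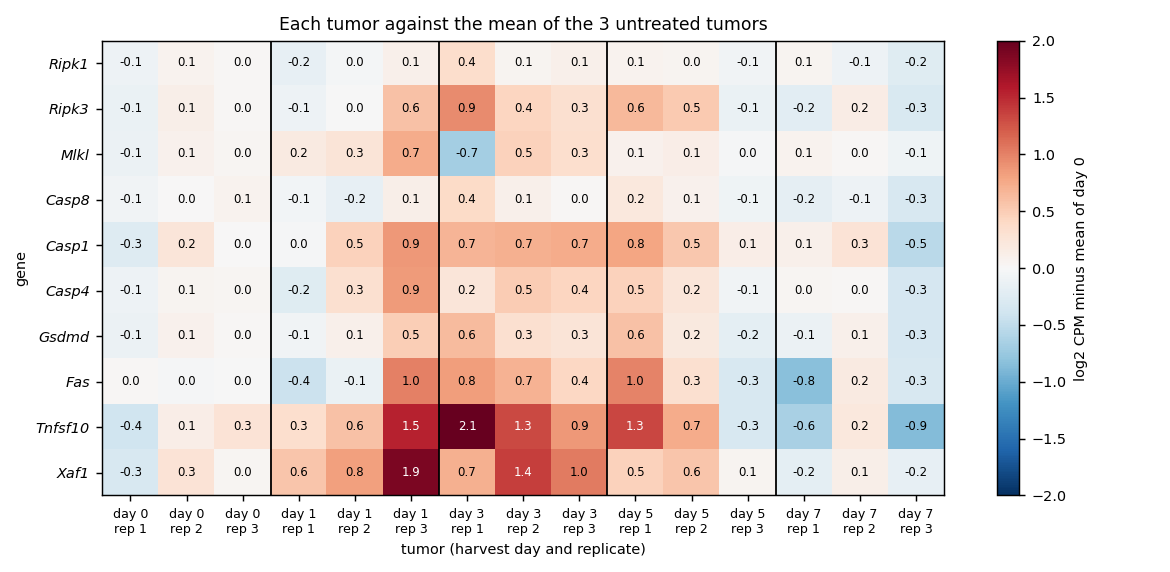
Difference of each tumor's log2 CPM from the mean of the 3 untreated tumors, for 10 genes (rows) and 15 tumors (columns); red is higher and blue lower. The column of day 1 replicate 3 is red for all 10 genes and that of day 7 replicate 3 blue, while Mlkl in day 3 replicate 1 is blue where the other 9 genes of that tumor are red.

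Across the 15 tumors, which share libraries and days, the median Pearson correlation of a gene's log2 CPM with the other 9 was 0.89 for Gsdmd, 0.87 for Tnfsf10, 0.85 for Ripk3 and 0.11 for Mlkl. Without day 3 replicate 1 the median for Mlkl was 0.68 over 14 tumors. Among 11332 genes with a mean of at least 5 CPM, those most like Xaf1 were Herc6 (r = 0.99) and Oasl2 (r = 0.98), those most like Tnfsf10 were Sp110 and C1ra (r = 0.98 for each), and those most like Mlkl were Apol9a and Apol9b (r = 0.97 for each). Those most like Ripk3 were Il2rg and Ptafr (r = 0.99 for each), and those most like Gsdmd were Pla2g7 (r = 0.98) and Cd40 (r = 0.97). Psmb8 and Gm4951 were most like Casp1, Olfr56 and Slc48a1 most like Casp4, Hcar2 and Diaph1 most like Fas, Thy1 and Gpm6b most like Casp8, and Leprot and Mppe1 most like Ripk1, with r from 0.93 to 0.98. Oasl2 is among the 24 interferon response genes, and Il2rg encodes a cytokine receptor chain.

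Of 73 further cell death genes in 4 lists, 70 were tested, and edgeR called none of them in any comparison. At an unadjusted p under 0.05, edgeR placed 3, 26, 5 and 2 of the 70 below the threshold on days 1, 3, 5 and 7, and 28 between days 3 and 7. On day 3 that was 37.1% of the 70, against 30% of all genes, and between days 3 and 7 it was 40% against 35.5%, so that neither share stood far from the background. DESeq2 called 16 of the 70 on day 3, when it called 12.9% of all genes, and voom called 10, when it called 7.65%. Without day 3 replicate 1, DESeq2 called 1 of the 70 on that day, Pmaip1. Inflammasome and pyroptosis genes had the highest median of the 4 lists on day 3, a log2 fold change of 1.12 over 18 genes (0.69 without day 3 replicate 1), followed by death receptors and ligands at 0.52 over 13 genes (0.24), apoptosis genes at 0.14 over 23 (0.10) and necroptosis and RIP kinase partners at 0.04 over 16 (0.10). The interferon response list stood at 1.28 over 24 genes (1.44).

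Among the necroptosis partners, the nucleic acid sensor Zbp1 had the smallest joint p. Zbp1 was at 97.9, 138 and 123 CPM on day 0, 172, 233 and 477 on day 1, 225, 340.3 and 254 on day 3, 199.7, 191 and 109.6 on day 5, and 88.6, 131 and 69.8 CPM on day 7. All tumors of days 1 and 3 lay above all untreated ones, with log2 fold changes of 1.295 and 1.19. They were 0.76 on day 1 without day 1 replicate 3 and 1.32 on day 3 without day 3 replicate 1. DESeq2 called it on day 3 (adjusted p = 0.0214, against 0.115 by edgeR, and 0.0862 by DESeq2 without day 3 replicate 1) and in the joint test. Rnf31, a subunit of the linear ubiquitin ligase, and Tnfaip3 (A20), which edits ubiquitin, were next by joint p, with 0.65 and 0.88 on day 3 (edgeR adjusted p = 0.126 and 0.115). The adaptor Fadd and the caspase-8 inhibitor Cflar had log2 fold changes of 0.01 and -0.07 on day 3.

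Among inflammasome components, the DNA sensor Aim2 was at 7.49, 10.8 and 11.1 CPM on day 0 and at 44.4, 17.7 and 18.1 on day 3, a log2 fold change of 1.45 (95% CI 0.63 to 2.27). Pycard, the adaptor ASC, was at 6.07, 10.6 and 10.4 CPM on day 0 and at 43.5, 15.7 and 19.7 on day 3, a log2 fold change of 1.54 (95% CI 0.52 to 2.56). The sensors Naip5, Nlrc4 and Nlrp3 had 1.38, 1.33 and 1.02 on day 3, while the cytokine gene Il1b had -0.13 (95% CI -1.14 to 0.88) and the gasdermin Gsdme -0.13 (95% CI -0.55 to 0.29). DESeq2 called Aim2, Pycard, Naip5 and Nlrc4 on day 3 (adjusted p = 0.0135, 0.0217, 0.0171 and 0.0213), and edgeR gave 0.115 for each of these 4. Each of the 4 was by far the highest in day 3 replicate 1. Without that tumor their log2 fold changes were 0.88, 0.98, 0.89 and 0.90, and the DESeq2 adjusted p lay between 0.199 and 0.296, so none of these calls held. Without it Nlrp3 had 0.71, Il1b -0.19 and Gsdme 0.12.

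Among death receptors and ligands, Fasl, the ligand of Fas, was at 1.48, 2.12 and 1.24 CPM on day 0 and at 10.5, 5.85 and 5.21 on day 3, a log2 fold change of 2.15 (95% CI 0.52 to 3.77, adjusted p = 0.118 by edgeR and 0.0334 by DESeq2). Leaving out day 3 replicate 1 gave 1.78 (DESeq2 adjusted p = 0.282). The cytokine Tnf and its receptor Tnfrsf1b had 1.16 and 1.11 on day 3, and Tnfsf12 (TWEAK) had 0.83, against 1.1016, 0.71 and 0.39 without that tumor. Tnfrsf10b, the mouse TRAIL receptor, stood at 34.0, 29.9 and 30.2 CPM on day 0 and at 11.2, 31.4 and 26.0 on day 3. The lowest receptor level and the highest level of its ligand Tnfsf10 were both in day 3 replicate 1, the tumor that stood apart. Mlkl was lowest there too, and a relation of receptor and ligand was not tested. The log2 fold change of Tnfrsf10b was -0.46 (95% CI -1.02 to 0.11, edgeR adjusted p = 0.232), and -0.13 without that tumor.

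Pmaip1, which encodes the BH3-only protein NOXA, had the smallest joint p of the 70 and ran the other way. It was at 53.7, 48.6 and 47.9 CPM on day 0, 37.1, 34.3 and 38.1 on day 1, 20.4, 25.3 and 32.2 on day 3, 29.8, 31.7 and 32.7 on day 5, and 34.2, 27.3 and 30.4 CPM on day 7. All 12 treated tumors lay below all untreated ones, day 7 included. The log2 fold changes of Pmaip1 were -0.46, -0.95, -0.67 and -0.71 in order of day, with DESeq2 adjusted p of 0.231, 7.39e-07, 0.0136 and 0.0042, and edgeR adjusted p of 1.0, 0.115, 0.859 and 1.0. Without day 3 replicate 1 the day 3 value was -0.80 (adjusted p = 1.07e-05 by DESeq2 and 0.214 by edgeR). Of the other apoptosis genes, the BH3-only gene Bcl2l11 (BIM) had 1.28 on day 3 (adjusted p = 0.115 by edgeR and 0.0153 by DESeq2) and 0.78 without replicate 1 (DESeq2 adjusted p = 0.217). The apoptosome gene Apaf1 had -0.22 and Xiap, the partner of XAF1, had -0.11 (95% CI -0.38 to 0.16).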

How the data were processed

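RNA from 15 whole tumors was sequenced as 100-base single-end poly(A) libraries. The authors checked reads with FastQC, estimated transcript abundance with kallisto, summarized it to genes with tximport and deposited a table of estimated counts per gene (GRCm38), which are expected counts and not normalized. These counts were rounded to whole numbers for DESeq2 and used as deposited for edgeR and voom. Of 32544 entries, 31402 matched a mouse gene symbol, 9156 had no count in any tumor and 1, a symbol turned into a date with 0.0268% of the counts or less in each tumor, was dropped.

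Genes that reached the CPM minimum of the study in at least 3 tumors (15494) were scaled by TMM and fitted on harvest day over all 15 tumors with the quasi-likelihood F test of edgeR 4.0.16 (two-sided, Benjamini-Hochberg over all genes tested, threshold 0.05). Printed CPM are TMM-scaled and log2 CPM use a prior count of 2. DESeq2 1.42.0 and limma 3.58.1 (voom with sample quality weights) were alternatives, as were other scalings and filters, a replicate block and leaving out each tumor. Within-tumor ratios were compared by exact permutation. Marker sums add the CPM of a list.

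The 10 genes and all lists were chosen with earlier results of these data known. The text names all 10, the 3 genes of the smallest joint p in each of 4 further lists, the 2 genes most correlated with each of the 10 (mean of at least 5 CPM) and, whatever their values, Zbp1, Fadd, Cflar, Pycard, Nlrp3, Aim2, Il1b, Gsdme, Fasl, Tnf, Tnfrsf10b and Xiap. Likeness, positions (GENCODE M21) and RefSeq windows are descriptions. With 23.7 to 31.9 mega-counts per tumor, counting error is small beside the spread between tumors.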

Additional observations from a re-analysis of the deposited data

Results flagged for a closer look

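Casp8 was singled out because its 3 day 3 tumors all lay above the mean of the untreated tumors and its 3 day 7 tumors all below it. The mean log2 CPM of Casp8 on day 7 minus that on day 3 was -0.373. This pattern of signs is itself not a test. The direct comparison of day 7 with day 3 gave an adjusted p of 0.0832 by edgeR and 0.0270 by DESeq2, and 0.315 by edgeR without day 3 replicate 1.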

How the results depend on the processing

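Of 1150 fold changes (50 values of the 10 genes under 23 alternatives), 1103 kept their direction and side of the threshold. Another 22 crossed to significance and 25, in 12 of the 50 values, changed sign. The main fit and most of its edgeR alternatives called 0% of all genes, so keeping the side of the threshold says little. Against 0 of 10 genes called by edgeR, DESeq2 called 1 on day 1, 3 on day 3, 5 between days 3 and 7 and 2 jointly, and voom called 1 on day 3, 1 on day 5, 2 between days 3 and 7 and 6 jointly. Without day 3 replicate 1 and day 1 replicate 3 together, edgeR called 1 on day 3 and 1 between days 3 and 7, and DESeq2 without day 3 replicate 1 called 1 on day 1, 1 on day 3, 1 between days 3 and 7 and 1 jointly. These last settings were chosen after seeing the data. Leaving out single tumors gave 0 to 3 calls between days 3 and 7, with 1 (Xaf1) without day 1 replicate 3, when 0.375% of all genes were called, and 3 (Casp8, Tnfsf10 and Xaf1) without day 3 replicate 3, when 13.6% were. The cause was not tested.

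Of the other 70 genes, with 0 called by edgeR, DESeq2 called 16 on day 3, 1 on day 5, 1 on day 7, 22 between days 3 and 7 and 8 jointly, voom 10, 19 on day 5, 3 between days 3 and 7 and 31 jointly, and edgeR without both tumors 1 on day 3 and 1 between days 3 and 7. DESeq2 without day 3 replicate 1 called 2 on day 1, 1 on each of days 3, 5 and 7, 1 between days 3 and 7 and 2 jointly. Leaving out single tumors gave 0 to 1 on day 3, with 1 without day 1 replicate 3 (0.395%) and without day 3 replicate 3 (0.013%). Between days 3 and 7 it gave 0 to 14, with 14 without day 3 replicate 3 (13.6%).

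Signs changed on day 1 for Ripk3 (log2 fold change -0.022 by voom, -0.058 without both tumors) and Fas (-0.14 and -0.28), and on day 7 for Mlkl (-0.033 by voom). Leaving out single tumors gave on day 1 -0.10 to 0.025 for Ripk1, -0.062 to 0.31 for Ripk3, -0.11 to 0.035 for Casp8 and -0.28 to 0.55 for Fas. It gave for Mlkl -0.083 to 0.40 on day 3, -0.050 to 0.051 on day 7 and -0.38 to 0.10 between days 3 and 7, on day 5 -0.031 to 0.060 for Ripk1 and -0.0019 to 0.15 for Casp8, and on day 7 -0.20 to 0.18 for Casp1, -0.15 to 0.030 for Casp4 and -0.24 to 0.051 for Xaf1. The ratio of Mlkl to Casp8 ranged from -0.38 to 0.33 on day 3 and from -0.040 to 0.054 on day 5, and that of Ripk3 to Ripk1 from -0.17 to 0.10 on day 7.

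Nothing states that replicate numbers pair the tumors, and deviations within days of 3 tumors cannot settle it. The 30 pairs with the same number had correlations of deviations from -0.62 to 0.51, 9 of 30 above 0.1. A fit with the replicate block called 0 of the 10 genes and 0% of all genes, as the main fit did. These calls therefore do not decide the question of pairing.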
